A study of Mus musculus with 20 samples.

Results

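The genes described here encode the machinery of MHC class II antigen presentation: Cd74, H2-Aa, H2-Ab1, H2-Eb1, H2-DMa, H2-DMb1 and Ciita, 7 genes in all. A member was measured through every array probe set annotated to that gene and no other. By this rule 6 of the 7 genes had 14 probe sets, out of 34945 single-gene probe sets for 18193 genes on the array. Both probe sets that hold H2-DMb1 are shared with H2-DMb2, so no value is given for it. The livers came from 20 male mice of the BALB/c strain that had arrived at 6 weeks of age, and the RNA of each was read on its own Affymetrix array, 5 arrays in each of 4 groups. STZ mice received 1 intraperitoneal dose of 185 mg/kg streptozotocin, which destroys pancreatic beta cells, and ate plain AIN93G diet for 14 days. The 0.1% and 0.5% phloridzin mice received the same dose and ate AIN93G with 0.1% or 0.5% phloridzin, a plant glucoside that blocks glucose uptake through SGLT proteins, for 14 days. All STZ-injected mice had a blood glucose between 330 and 590 mg/dL when they were assigned to a diet. Untreated mice ate plain AIN93G and received no injection, so streptozotocin, the injection and the diabetes that followed cannot be told apart. Each group was kept as 6 mice, of which 5 have an array here.

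MHC class II molecules are pairs of an alpha and a beta chain that carry peptides from the endosome to the cell surface, where CD4 T cells read them. The invariant chain, encoded by Cd74, fills the groove of a new molecule until it reaches the endosome, and the H2-DM dimer then exchanges its remnant for a peptide. Ciita encodes the coactivator on which transcription of these genes depends. In liver, class II is known mainly from Kupffer cells, dendritic cells, B cells and, at a lower level, sinusoidal endothelium, whereas hepatocytes carry little of it.

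Of the members, 5 lie on mouse chromosome 17, within the major histocompatibility complex: H2-Aa, H2-Ab1, H2-Eb1, H2-DMa and H2-DMb1. Class II promoters are known for an X box, bound by the RFX complex, followed by a Y box, bound by NF-Y, and Ciita joins the proteins assembled there. The 2 windows below, the start regions of the alpha gene H2-Aa and the beta gene H2-Eb1, are shown because these genes were higher in all 3 STZ-injected groups. Each runs from 250 bases before to 50 bases after the annotated start (RefSeq, GRCm38.p6, chr17:34287774-34288073 on the minus strand for H2-Aa and chr17:34305617-34305916 on the plus strand for H2-Eb1). The capitals mark GNAAC, the core of the X box, and TGATTGG, which holds the Y box core.
H2-Aa: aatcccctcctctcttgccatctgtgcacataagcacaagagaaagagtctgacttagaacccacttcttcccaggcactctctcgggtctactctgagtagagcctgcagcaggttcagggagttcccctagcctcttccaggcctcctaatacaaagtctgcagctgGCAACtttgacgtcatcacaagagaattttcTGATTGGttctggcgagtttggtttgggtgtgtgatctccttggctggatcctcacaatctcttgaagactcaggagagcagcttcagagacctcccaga
H2-Eb1: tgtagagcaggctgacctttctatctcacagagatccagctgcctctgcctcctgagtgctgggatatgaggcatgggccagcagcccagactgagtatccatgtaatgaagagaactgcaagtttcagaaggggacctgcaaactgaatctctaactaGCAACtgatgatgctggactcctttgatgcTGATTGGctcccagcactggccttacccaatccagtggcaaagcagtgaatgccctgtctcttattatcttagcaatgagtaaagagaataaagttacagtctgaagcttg
In H2-Aa the letters GNAAC began at base -81 and TGATTGG at base -50 from the start, and in H2-Eb1 they began at base -91 and base -61. Either strand was searched for GNAAC followed on the same strand by TGATTGG, with 20 to 45 bases between their first letters, a spacing set after the sequences were seen. This pair was present in 6 of 9 windows of class II genes (H2-Aa, H2-Eb1, H2-DMb1, H2-Oa, H2-Ob and H2-Eb2), and in neither window of H2-DMa nor that of H2-DMb2. Only 4 members had a window among these 9. Cd74 was left out of this set, and H2-Ab1 and Ciita had no window. Whether these members hold the pair is therefore not reported. The pair was present in 0.715% of all 32851 windows, while GNAAC alone was in 84.8% and TGATTGG alone in 7.82%. These windows come from the reference strain and not from BALB/c, and a match describes letters in a window only.

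Values are the linear signal that the authors deposited, scaled so that the trimmed mean of every array was 100. Array medians ran from 11.2 to 17.1, and a signal at or below 17.1 was treated as not above background. Arrays of a group correlated at 0.971 to 0.985 across probe sets on the log2 scale. The replicates are the separate mice, and the probe sets of 1 array are not independent replicates. Differences are in log2(signal + 16) with their standard error (SE), which understates the change of dim genes. Their p-values come from limma, adjusted by Benjamini and Hochberg over 12947 genes, and a gene is called at an adjusted p under 0.05. The number of arrays limits the precision, and the median 95% interval of a gene was ± 0.30. Liver identity was plain in the hepatocyte marker sums, which lay at 63039.9 or more in every mouse. The highest sum, in a 0.1% phloridzin mouse, was 179547, beside a group median of 89046 and at most 101320 in the other groups. The 4 groups were compared first in 1 F test per gene, which called 4 of the 6 measured members (Cd74, H2-Aa, H2-Eb1 and H2-Ab1) against 12.9% of all genes. The call of H2-Ab1 was lost when untreated replicate 1, 2, 3 or 4 was left out.

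Against untreated mice, STZ mice had higher signals for the invariant chain, the alpha chain of the I-A molecule and the beta chain of the I-E molecule. Cd74, H2-Eb1 and H2-Aa were called, at 1.99-fold, 1.93-fold and 1.86-fold in signal + 16. H2-Ab1, H2-DMa and Ciita did not pass the test. The 3 of 6 members called, all higher, stand against 13.8% of all genes called in either direction, 6.9% as higher and 6.89% as lower. The 5 STZ and 5 untreated values did not overlap for these 3 members, which was so for 12.9% of all genes. Values of single mice follow in the order of replicates 1 to 5.

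Cd74 had signals of 480.4, 368, 336, 508 and 516 in STZ mice. In 0.1% phloridzin mice they were 426, 557, 399.8, 419.5 and 281, in 0.5% phloridzin mice 456, 525, 416, 329.8 and 661, and in untreated mice 215, 238, 201, 206 and 194. Every STZ-injected mouse was above every untreated mouse, and the untreated mice lay closer together than the others. The means were 441 ± 83.9 in STZ mice, 417 ± 97.8 in 0.1% phloridzin mice, 477 ± 125 in 0.5% phloridzin mice and 211 ± 16.8 in untreated mice (SD, n = 5 each). The difference from untreated mice was 0.99 (SE 0.17, limma adjusted p = 0.000813) for STZ, 0.90 (SE 0.17, adjusted p = 0.00156) for 0.1% and 1.09 (SE 0.17, adjusted p = 0.000406) for 0.5% phloridzin.

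H2-Aa, the alpha chain of the I-A molecule, had signals of 328, 204, 239, 449 and 402 in STZ mice. In 0.1% phloridzin mice they were 386, 439.8, 378, 338 and 233, in 0.5% phloridzin mice 292, 336, 265, 298 and 443, and in untreated mice 158, 145, 169.6, 183 and 146. The lowest STZ-injected mouse, STZ replicate 2, was above the highest untreated mouse. The difference was 0.90 (SE 0.19, limma adjusted p = 0.00383) for STZ, 1.05 (SE 0.19, adjusted p = 0.00103) for 0.1% and 0.94 (SE 0.19, adjusted p = 0.00305) for 0.5% phloridzin.

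H2-Ab1, its beta chain, had signals of 188, 147, 141, 163 and 204 in STZ mice. In 0.1% phloridzin mice they were 155, 246, 182, 266 and 106, in 0.5% phloridzin mice 169.7, 219, 154, 185 and 315, and in untreated mice 79.0, 104, 93.6, 111 and 142. The lowest STZ mouse was just below untreated replicate 5, the lowest 0.1% phloridzin mouse was below 2 untreated mice, and the 0.5% phloridzin mice did not overlap with untreated mice. The difference was 0.61 (SE 0.21) for STZ, where limma gave an adjusted p of 0.0544, just short of the threshold, and it was called in 12 of 30 alternative settings, with adjusted p between 0.0121 and 0.133. It was 0.72 (SE 0.21, adjusted p = 0.020) for 0.1% and 0.86 (SE 0.21, adjusted p = 0.00935) for 0.5% phloridzin. The call for 0.1% was lost without untreated replicate 1 (adjusted p = 0.0585), without 0.1% phloridzin replicate 2 (0.0524) or without 0.1% phloridzin replicate 4 (0.0636).

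H2-Eb1, the beta chain of the I-E molecule, had signals of 289, 208, 220.5, 397 and 298 in STZ mice. In 0.1% phloridzin mice they were 275, 345, 242, 265 and 161, in 0.5% phloridzin mice 229, 287, 259, 262 and 393, and in untreated mice 112, 138, 154, 147 and 127. Again no STZ-injected mouse was as low as an untreated mouse, and the nearest was 0.1% phloridzin replicate 5. The difference was 0.95 (SE 0.18, limma adjusted p = 0.00173) for STZ, 0.82 (SE 0.18, adjusted p = 0.00439) for 0.1% and 0.98 (SE 0.18, adjusted p = 0.00164) for 0.5% phloridzin.

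**Figure D1:**
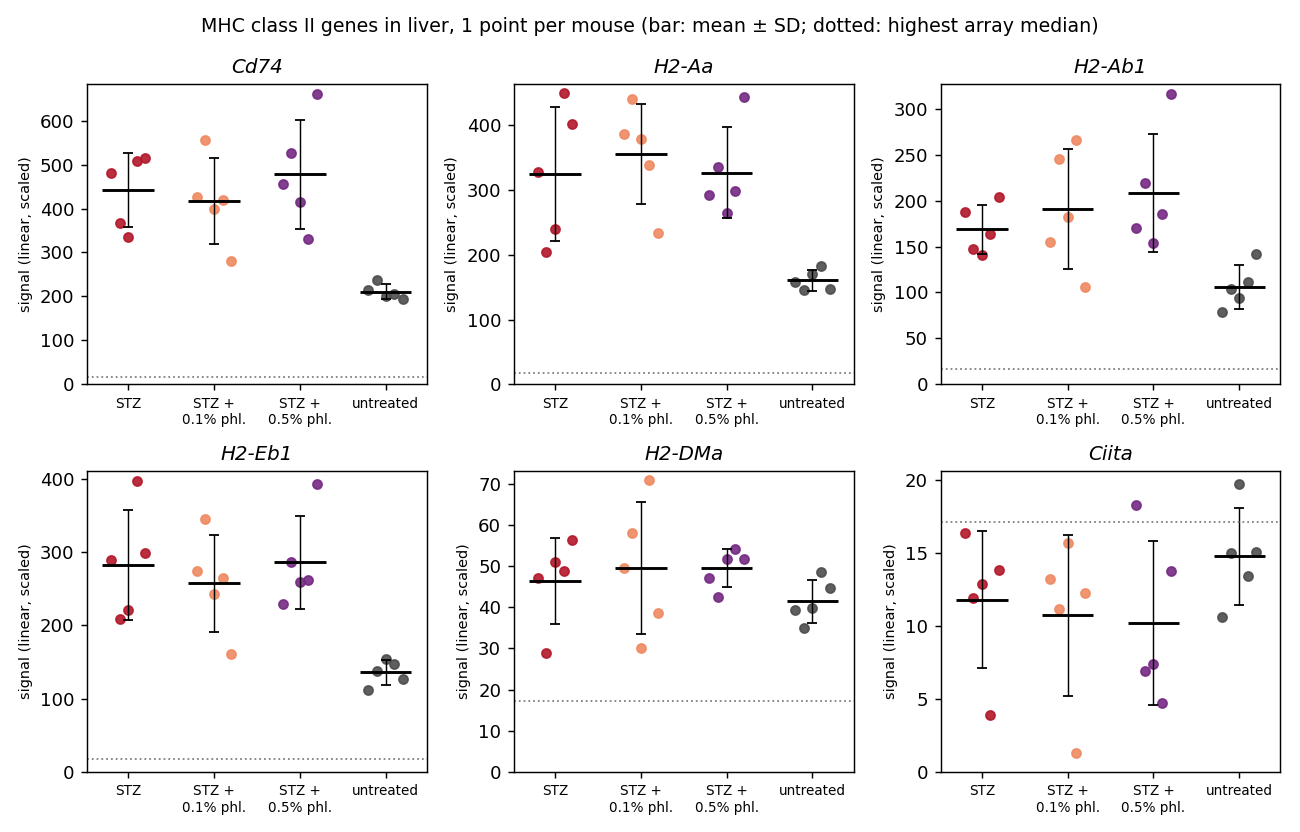
Linear signal of the 6 measured class II genes, 1 point per mouse, with group mean and SD (n = 5 each) and a dotted line at the highest array median of 17.1. In Cd74, H2-Aa and H2-Eb1 every STZ-injected mouse is above every untreated mouse, H2-Ab1 and H2-DMa overlap, and Ciita lies around the dotted line.

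H2-DMa, the alpha chain of the peptide exchange dimer, had signals of 28.9 to 56.3 in STZ mice (median 48.8), 30.2 to 71.0 in 0.1% phloridzin mice (median 49.5), 42.6 to 54.1 in 0.5% phloridzin mice (median 51.8) and 34.9 to 48.5 in untreated mice (median 39.9). The groups overlapped, and the differences from untreated mice were 0.11 (95% interval -0.20 to 0.41), 0.16 (-0.15 to 0.46) and 0.19 (-0.12 to 0.50) for STZ, 0.1% and 0.5% phloridzin, with limma adjusted p of 0.677, 0.504 and 0.436. The intervals leave out a difference as large as that of Cd74 and do not show that H2-DMa was the same in the groups.

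Ciita was at the background of the array. Its brightest probe set had signals of 3.91 to 16.4 in STZ mice, 1.31 to 15.7 in 0.1% phloridzin mice, 4.74 to 18.3 in 0.5% phloridzin mice and 10.6 to 19.7 in untreated mice, so that only 1 mouse of the 0.5% phloridzin group and 1 untreated mouse were above 17.1. Differences between such signals are not read as changes, and none of the 3 comparisons with untreated mice was called (limma adjusted p of 0.567, 0.385 and 0.358). Cd74 lies on chromosome 18 and Ciita on chromosome 16, apart from the chains on chromosome 17.

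In 0.1% phloridzin mice 4 of 6 members were called against untreated mice, all higher: H2-Aa, Cd74, H2-Eb1 and H2-Ab1. Of all genes 16.7% were called in this comparison, 7.76% as higher and 8.98% as lower. In 0.5% phloridzin mice the same 4 of 6 members were called as higher, against 12.7% of all genes called, 6.53% as higher and 6.18% as lower. The groups did not overlap for 3 members with 0.1% (13.2% of all genes) and for 4 members with 0.5% phloridzin (11.1%). The 3 comparisons share the untreated mice, so they are not independent of each other. Over the 6 measured members the median difference was 0.75 for STZ, 0.77 for 0.1% and 0.90 for 0.5% phloridzin, beside medians of -0.05, -0.04 and -0.01 over all genes. Without Ciita, which was at background, the medians of the other 5 were 0.90, 0.82 and 0.94.

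Among the 3 groups of STZ-injected mice 0 of 6 members were called, and 0% of all genes were called by limma in any of these 3 comparisons. The difference of 0.1% phloridzin from STZ mice lay between -0.13 and 0.15 across the 5 members above background, that of 0.5% phloridzin from STZ mice between 0.03 and 0.25, and that of 0.5% from 0.1% phloridzin mice between -0.11 and 0.18. At an unadjusted p under 0.05 the count was also 0 of 6 in each, and the smallest p was 0.234, for H2-Ab1 in 0.5% phloridzin against STZ mice. That member had the largest difference, 0.25, with a 95% interval from -0.18 to 0.68. For Cd74 the interval of the difference from STZ mice was -0.45 to 0.27 with 0.1% and -0.27 to 0.45 with 0.5% phloridzin. Changes of the size seen against untreated mice lie outside both intervals, and smaller changes in either direction do not.

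Most class II genes are covered by several probe sets, which share a target and are not replicates. Without a filter on low signals, 6, 6 and 8 of the 14 probe sets were called by limma in STZ, 0.1% and 0.5% phloridzin against untreated mice, all higher, beside 5.91%, 7.99% and 5.2% of all 34945 probe sets. The count for 0.5% phloridzin was 4 without its replicate 5. Among the probe sets of H2-Aa, 1438858_x_at had signals of 62.5 to 199.8 in STZ mice, 58.2 to 155 in 0.1%, 138 to 191 in 0.5% phloridzin mice and 59.3 to 87.9 in untreated mice. It differed from untreated mice by 0.86, 0.63 and 1.07, and the middle value, for 0.1% phloridzin, was not called (adjusted p = 0.113). Probe set 1452431_s_at had 182 to 385, 131 to 345, 172 to 293 and 94.1 to 155 in the same order of groups and was called in all 3 comparisons (0.96, 0.84 and 0.84). The fourth H2-Aa probe set, 1443783_x_at, was at background in every mouse, with signals up to 8.77.

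The 3 probe sets of H2-Ab1 were unlike each other in size of difference. Probe set 1425477_x_at, with 70.3 to 123 in STZ, 37.8 to 143 in 0.1%, 54.0 to 127 in 0.5% phloridzin and 24.6 to 54.9 in untreated mice, differed by 1.18, 1.07 and 1.06 and was called in all 3 comparisons (adjusted p of 0.00600, 0.00954 and 0.0140). Probe set 1451721_a_at, with 66.9 to 114, 55.7 to 153, 87.1 to 146 and 53.9 to 95.8 in the same groups, differed by 0.46, 0.43 and 0.72 and was called with 0.5% phloridzin alone (adjusted p of 0.210, 0.214 and 0.0411). The probe set used for the gene lay between them, so whether H2-Ab1 was called in STZ mice depended on the probe set. The suffixes s and x mark probe sets with probes that can match other transcripts, which bears on these related chains, and the share of such binding was not tested. The second H2-DMa probe set and the other Ciita probe sets stayed near or below background in most mice and were not called.

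**Figure D2:**
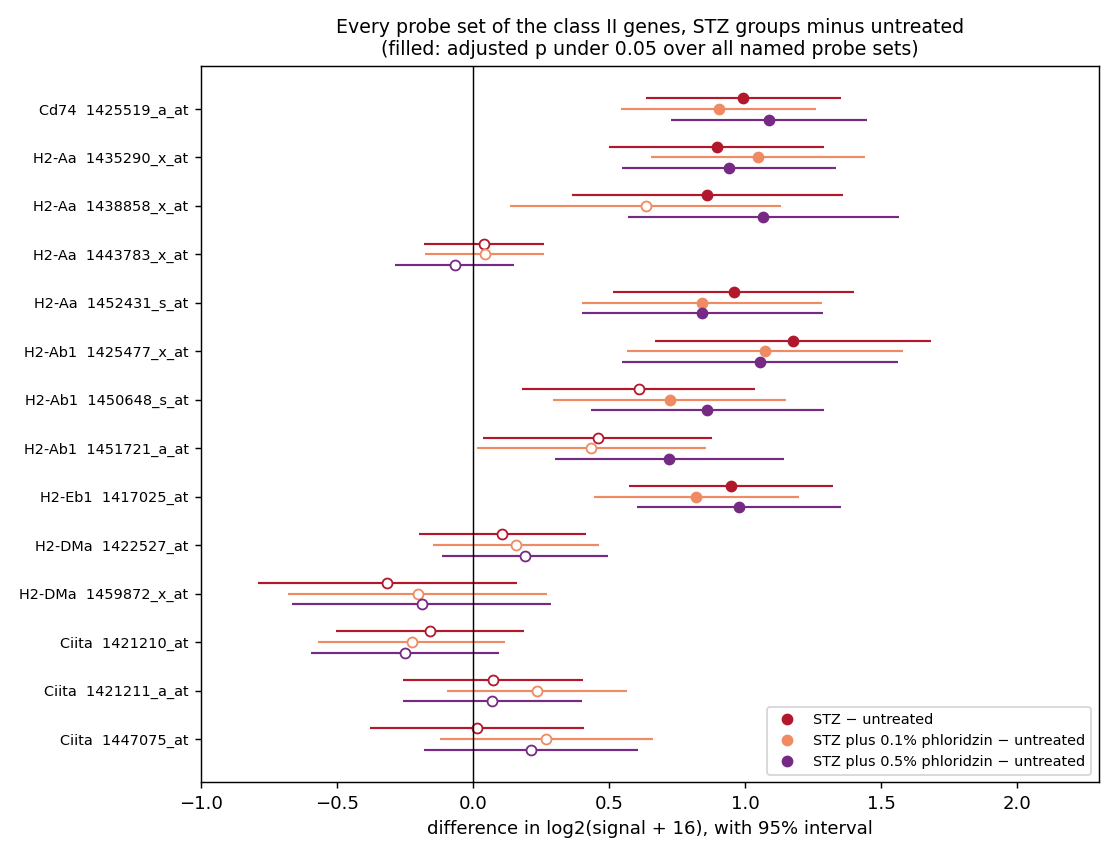
Difference in log2(signal + 16) of each STZ-injected group from untreated mice with its 95% interval, for all 14 probe sets, filled where called over all probe sets. Of H2-Aa, 3 probe sets lie well above 0 and the dim 1443783_x_at at 0, and the H2-Ab1 probe sets range from 0.43 to 1.18.

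The 4 brighter members also varied together among the STZ-injected mice. Over the 15 STZ-injected mice, each of the 6 pairs among Cd74, H2-Aa, H2-Ab1 and H2-Eb1 had a Pearson r between 0.66 and 0.87 and a Spearman rho between 0.66 and 0.90 on the log2 scale (permutation tests, 100000 resamples, two-sided; Benjamini-Hochberg adjusted p over 6 pairs of at most 0.00666 for r and 0.00996 for rho). The permutations shuffled mice across the STZ-injected groups, so they do not test covariation within a group. With the group means taken out, r was 0.69 to 0.93, and these values were not tested. With the group means left in, but without the 2 mice farthest from the median on the x axis, r was 0.51 to 0.82. For H2-Ab1 with H2-Eb1 it was 0.40. The 0.1% phloridzin replicate 5 was the lowest of the 15 for Cd74, H2-Ab1 and H2-Eb1 and the next to lowest for H2-Aa. The 0.5% phloridzin replicate 5 ranked 1 or 2 for all 4 genes, and STZ replicates 2 and 3 ranked 12 to 15 for all 4. The arrays share a scaling step, and the labels name neither a pairing of mice by number nor a batch. The probe sets used for H2-Aa and H2-Ab1 carry the suffixes x and s, and the part of shared binding in r was not tested.

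**Figure D3:**
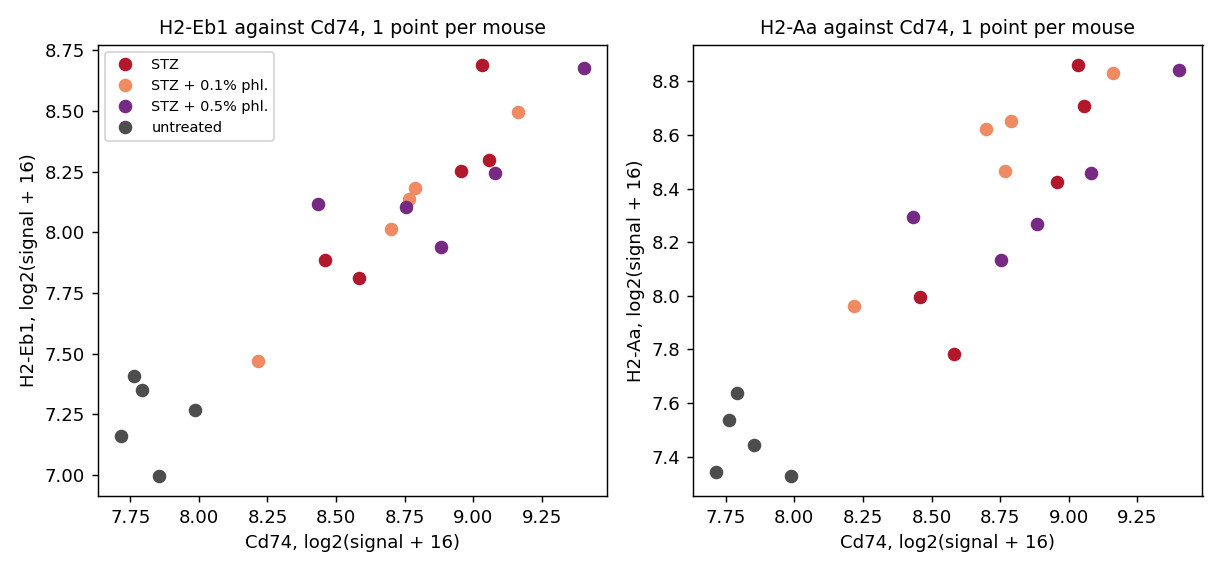
H2-Eb1 (left) and H2-Aa (right) against Cd74 in log2(signal + 16), 1 point per mouse, coloured by group. The 15 STZ-injected mice spread along a rising band (r of 0.87 and 0.78), and the 5 untreated mice form a separate cloud at the lower left.

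Over all 20 arrays with group means taken out, the correlation with the mean of the other bright members was 0.85 for Cd74, 0.85 for H2-Aa, 0.90 for H2-Eb1 and 0.70 for H2-Ab1, against 0.45 for H2-DMa and -0.08 for the dim Ciita. The 6 genes outside the members most like their mean, out of 12947, were H2-Ea (r = 0.87), Laptm5 (0.80), Tmem176b (0.78), Kdr (0.77), Grb7 (0.77) and Zfp292 (0.76). H2-Ea is the alpha chain that pairs with H2-Eb1, Laptm5 is a lysosomal protein of blood cells and Kdr is a VEGF receptor of endothelium. These values are descriptions over 20 arrays that share 1 scaling. The H2-Ea probe set carries the suffix s, so its probes can match other transcripts, and the part of such binding in its r was not tested. The 6 genes were picked as the highest of 12947 values, a choice that by itself raises r. How high r would reach by that choice alone was not tested. For comparison, r was 0.39 for the pan-leukocyte gene Ptprc, 0.33 for the Kupffer cell gene Clec4f, -0.02 for the macrophage gene Adgre1 and 0.45 for Alb.

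Of 5 further class II genes, only H2-Ea was well above background. It had signals of 245 to 381 in STZ mice (median 266), 179 to 339 in 0.1% phloridzin mice (median 262), 279 to 413 in 0.5% phloridzin mice (median 322) and 150.0 to 188 in untreated mice (median 155). STZ and 0.5% phloridzin mice were above every untreated mouse, and the lowest 0.1% phloridzin mouse, at 179, was below the highest untreated one. The difference was 0.81, 0.62 and 0.94 for STZ, 0.1% and 0.5% phloridzin (limma adjusted p of 0.00111, 0.00674 and 0.000354). BALB/c mice make the I-E molecule, which the C57BL/6 reference strain lacks for want of this chain. Among H2-Oa, H2-Ob, H2-DMb2 and H2-Eb2, 3 had means at or below the highest array median in all groups, and neither of those that passed the filter was called.

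The counts by gene list that follow are of genes that passed the filter on low signals, and they stand beside 13.8%, 16.7% and 12.7% of all genes called for STZ, 0.1% and 0.5% phloridzin against untreated mice. Of 12 measured factors that act at class II promoters, 11 passed the filter, of which 0 rose and 2 fell in STZ mice, 1 rose and 3 fell with 0.1%, and 0 rose and 3 fell with 0.5% phloridzin. Nfya, a subunit of NF-Y, had signals of 34.3 to 62.0 in STZ mice, 46.0 to 61.2 in 0.1% and 41.2 to 45.8 in 0.5% phloridzin mice, against 68.7 to 92.9 in untreated mice, with no overlap. It fell by 0.51, 0.41 and 0.68 on the log2 scale (adjusted p of 0.00484, 0.0156 and 0.000509). Hdac2, a histone deacetylase, fell by 0.25, 0.39 and 0.28, but with arrays centred on their medians its call was lost in STZ and in 0.5% phloridzin mice, and in STZ mice also under quantile normalization. Rfxank, a subunit of RFX, fell by 0.76 with 0.1% and 0.73 with 0.5% phloridzin, and with 0.5% its call was lost under the same centring. Spi1, the myeloid factor PU.1, was called as higher by 0.66 with 0.1% phloridzin (adjusted p = 0.0231), and in STZ mice only after median centring or quantile normalization.

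Among 10 genes of endosomal processing, 2 rose and 1 fell in STZ mice, 5 rose and 1 fell with 0.1%, and 2 rose and 1 fell with 0.5% phloridzin, where 4 rose under quantile normalization. The lysosomal proteases Ctsd (0.27, 0.38 and 0.31) and Ctsz (0.50, 0.71 and 0.58) rose in all 3 groups, and Ctsl, Ctsb and Ctsh with 0.1% phloridzin (0.51, 0.30 and 0.42), of which the last 2 are named after their values were seen and Ctsb was not called under quantile normalization. Marchf8, a ubiquitin ligase that draws class II and other membrane proteins from the cell surface, had signals of 268 to 469.7 in STZ mice, 266 to 389 in 0.1% and 338 to 514 in 0.5% phloridzin mice, against 517 to 623 in untreated mice. No STZ-injected mouse was above an untreated one, and it fell by 0.59, 0.78 and 0.43 (adjusted p of 0.00734, 0.000875 and 0.0454), the last of which was not called after median centring. Ctss, the protease that trims the invariant chain in antigen-presenting cells, had 422 to 649.5, 433 to 626 and 514 to 806 in the 3 STZ-injected groups, overlapping with 498 to 600.2 in untreated mice, and was not called.

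In the list of MHC class I presentation, by which CD8 T cells read peptides from the cytosol, genes moved in both directions. The only genes called as lower were the chaperones Calr and Canx. Of 14 measured, 5 rose and 2 fell in STZ mice, 5 rose and 2 fell with 0.1%, and 6 rose and 1 fell with 0.5% phloridzin, with list medians of 0.25, 0.26 and 0.31; the 6 were 5 under quantile normalization. The class I heavy chain H2-K1 rose by 0.60, 0.69 and 0.69, and the immunoproteasome subunit Psmb10 by 0.58, 0.53 and 0.67. Psmb10 had 372 to 494 in STZ mice, 346 to 426 in 0.1% and 385 to 496 in 0.5% phloridzin mice, against 234 to 297 in untreated mice, with no overlap. The peptide trimming enzyme Erap1 rose by 0.72, 0.54 and 0.78, and the heavy chain H2-D1 by 0.38, 0.46 and 0.45. Nlrc5, the class I counterpart of Ciita, is named after its values were seen: unlike Ciita it was measurable, at 68.1 to 112, 71.4 to 115 and 58.5 to 122 against 37.4 to 77.9 in untreated mice, with overlap, and it rose by 0.61, 0.61 and 0.67 (adjusted p of 0.0267, 0.0232 and 0.0182). The chaperone Calr fell by 0.56, 0.52 and 0.59, and Canx by 0.33 in STZ and 0.37 in 0.1% phloridzin mice, the first of these lost after median centring.

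Interferon gamma is a known inducer of Ciita. Of 18 measured genes of its pathway and targets, 15 passed the filter, of which 3 rose in STZ mice, 4 rose and 1 fell with 0.1%, and 2 rose with 0.5% phloridzin, where 12.7% of all genes were called. The guanylate-binding protein Gbp2 had 32.2 to 73.1 in STZ mice, 30.5 to 50.02 in 0.1% and 40.5 to 84.2 in 0.5% phloridzin mice, against 11.2 to 26.7 in untreated mice, and rose by 1.15, 0.79 and 1.11. Of the 5 untreated mice 4 were at or below 17.1 for Gbp2, so these sizes rest on signals at background. Gbp3 had 60.02 to 159, 56.3 to 128 and 99.6 to 165 against 30.1 to 50.2 and rose by 1.14, 1.04 and 1.31. Neither overlapped with untreated mice. The kinase Jak1 rose by 0.41 in STZ and 0.34 in 0.1% phloridzin mice, and Ifngr2, a receptor chain named after its values were seen, rose by 0.46 with 0.1%, where Jak2 fell by 0.34, a call lost after median centring. Ifng itself was at background, and Irf1 and Cxcl9 were not called in any comparison. Of 7 costimulation and adhesion genes that passed the filter, 0 were called in STZ mice and 1, the adhesion molecule Icam1, with either dose (0.62 with 0.1% and 0.74 with 0.5%). Of 8 measured in this list, 5 had means at or below 17.1 in all groups, among them Cd80, Cd40 and Cd83, so most could not show a change.

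Bulk liver RNA cannot tell more cells of a type from more RNA per cell, so markers of the cells that carry class II are given beside these results. The summed signal of the measured members was 968 to 1569 in STZ mice, 833 to 1656 in 0.1% and 1133 to 1878 in 0.5% phloridzin mice, against 614 to 709 in untreated mice. The sum of 5 pan-leukocyte genes was 339 to 475, 318 to 478 and 337 to 447, against 314 to 360.4 in untreated mice, and 0 of 5 were called in any of the 3 comparisons, although Laptm5 was called with 0.1% phloridzin after quantile normalization. Of 14 Kupffer cell and macrophage genes, 1 rose and 1 fell in STZ mice, and 2 rose with each phloridzin dose, with sums of 4008 to 5596, 3846 to 5953 and 4277 to 5386, against 3944 to 4754 in untreated mice. Cd5l rose in all 3 (0.52, 0.51 and 0.46), Lyz2 fell by 0.52 in STZ mice, a call lost after median centring, and C1qb rose with 0.1% (0.52) and 0.5% phloridzin (0.58).

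Dendritic cell genes were mostly below detection. Of 10 measured markers, 7 had group means at or below 17.1 in all groups, among them Flt3, Xcr1, Siglech and Cd209a, and 0 of the 7 that passed the filter were called. Of 10 measured B and plasma cell markers, 5 were at or below 17.1 in all groups, among them Ms4a1 and Cd79a, and of the 8 that passed the filter 0 rose and 2 fell in each comparison. Ighm, the heavy chain of IgM, had 49.9 to 88.4 in STZ mice, 44.0 to 286 in 0.1% and 54.1 to 105 in 0.5% phloridzin mice, against 296 to 417 in untreated mice, with no overlap, and fell by 2.08, 1.63 and 1.91. Jchain fell by 0.73, 0.78 and 0.73. The B and plasma cell sum was 139 to 218, 118 to 429.5 and 158 to 253, against 451 to 566 in untreated mice. Ighm alone had a mean of 354 in untreated mice, so the fall of the sum mostly repeats that of Ighm. Of the 3 T and NK cell genes that passed the filter, Gzma fell in STZ mice (0.45), a call lost under quantile normalization and median centring, and 6 of 8 measured markers were at background.

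Among 9 sinusoidal endothelium genes, Lyve1 rose in all 3 groups (1.19, 1.04 and 1.30), with 99.9 to 265, 94.5 to 271 and 118 to 276 against 47.8 to 75.9 in untreated mice, and no other was called. The sum of the 9 was 1815 to 2658, 2258 to 2622 and 2201 to 2517, against 2284 to 2439.5 in untreated mice. In the remaining cell lists, 4 of 7 stellate cell genes fell in each comparison. Of the neutrophil genes that passed the filter, 0 of 3 were called. Among 5 cholangiocyte genes Sox9 fell in STZ and 0.1% phloridzin mice, the second call lost under both other scalings. Of 7 hepatocyte genes, Fgb fell in STZ mice and Cps1 rose with 0.1% phloridzin, and each call was lost under at least 1 other scaling. The part of any of these cell types in the class II result was not tested.

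**Figure D4:**
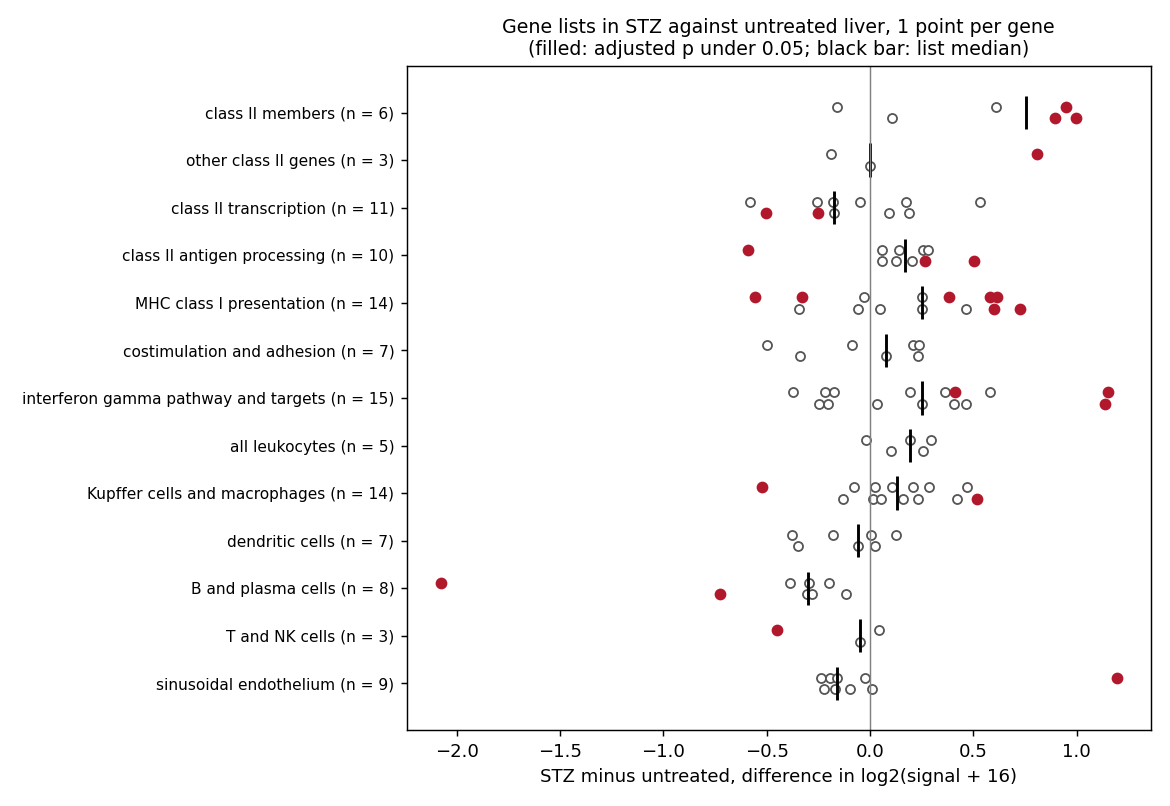
Difference in log2(signal + 16) of STZ from untreated mice, 1 point per gene by list, filled where called, with the list median as a black bar. The class II members have a median of 0.75, the leukocyte list one of 0.19, and the B and plasma cell list one of -0.30 with Ighm at -2.08.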

How the data were processed

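Liver RNA of 5 STZ, 5 0.1% phloridzin, 5 0.5% phloridzin and 5 untreated mice was labelled with the One-Cycle kit, per the labels' protocols. The values the authors deposited are intensity values, a linear signal per probe set, with a mean of 100 on each array once 2% of probe sets at either end are trimmed. Their software: not given in the sources used here.

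Among the 45101 probe sets, 64 controls, 9160 without a listed gene and 932 with several genes were left out of tests. Signals were taken as log2(signal + 16). Each gene was represented by its probe set with the highest mean, and genes at or above the 40th percentile (signal 8.48) were kept, which left 12947. All 6 measured members passed. Group means of the 20 arrays were fitted with limma 3.58.1 in R 4.3.3, two-sided, on 16 residual and 4.56 prior degrees of freedom, and p-values were adjusted by Benjamini and Hochberg. All probe sets were also fitted without a filter. The fit was tested on simulated data. Correlations used SciPy 1.17.1 and figures matplotlib 3.10.9.

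The members and lists were chosen with earlier results of these data known. Named genes are the members, up to 4 called genes per list and comparison by smallest p, the 6 genes most like the members, and markers that stand beside a result. Replicates are separate mice. Same-numbered mice of different groups correlated at -0.41 to 0.50 after removal of group means, with a median of 0.08, against a median of -0.01 with unlike numbers. Of these pairs 13 of 30 were above 0.1, against 31 of 120 with unlike numbers. The labels do not pair mice by number, and whether the numbers follow a shared order of processing was not tested. Alternatives were quantile normalization, median centring, other filters, the mean of probe sets, a pseudocount of 1, array weights, a trended robust prior, only the groups compared, a replicate block, and fits without each array.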

Additional observations from a re-analysis of the deposited data

Results flagged for a closer look

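In 4 of 56 sets of 5 signals (14 probe sets in 4 groups), 1 mouse stood apart from the others of its group by a gap above 0.71 of the group's whole range on the log2 scale. Chance flags about 1 in 20 such groups. The 0.1% phloridzin replicate 5 was lowest for H2-Aa probe set 1438858_x_at, at 58.2 with the next mouse at 123 (gap 0.748), and it was also the lowest or next to lowest of the STZ-injected mice for the 4 bright members. STZ replicate 2 was lowest for H2-DMa probe set 1422527_at, at 28.9 with the next at 47.2 (gap 0.718). The 0.1% phloridzin replicate 4 stood apart at both ends for Ciita: it was lowest on 1421210_at, at 1.31 with the next at 11.1 (gap 0.743), and highest on 1421211_a_at, at 21.4 with the next at 3.69 (gap 0.819). On the third Ciita probe set, 1447075_at, the same mouse was at 23.2. These Ciita signals lie around the array median, and the probe sets gave no common direction.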

How the results depend on the processing

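The calls of Cd74, H2-Aa and H2-Eb1 against untreated mice held for all 3 STZ-injected groups under each of 30 alternatives. The 3 of 6 members called in STZ mice were 4 in the settings that called H2-Ab1, and the 4 called with 0.1% phloridzin were 3 in the settings that lost it; 4 were called with 0.5% under every alternative. The F test called 4 members, or 3 without untreated replicate 1, 2, 3 or 4. With each array left out in turn, probe sets called ranged from 5 to 7 for STZ, 5 to 7 for 0.1% and 4 to 8 for 0.5% phloridzin. With the replicate block the counts were 3, 4 and 4 members and 6, 6 and 8 probe sets, and the block changed no call. The mean of all probe sets of a gene turned the sign of 4 differences that were never called: H2-DMa was -0.104 for STZ and -0.0226 for 0.1%, and Ciita, at background, 0.0925 for 0.1% and 0.0114 for 0.5% phloridzin; it averages in probe sets at background. The largest member difference among STZ-injected groups was 0.18 to 0.34 in size. Over all genes, 1785 calls in STZ mice became 2851 with array weights and 1171 without STZ replicate 5, and the 1646 with 0.5% became 2610 with array weights, 1084 without untreated replicate 1, 944 without 0.5% phloridzin replicate 1 and 980 without 0.5% phloridzin replicate 5. In STZ mice 893 genes were higher and 892 lower, or 1138 and 509 after median centring. Signals near background limit what can be said of Ciita, and 5 mice per group limit the rest.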
